A study of Ovis aries with 24 samples.

Results

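Ligand-gated ion channel receptors are the membrane proteins through which acetylcholine, GABA, glycine, glutamate, serotonin and extracellular ATP open an ion pore directly. The genes described here are the 63 subunit genes of these receptors, chosen by gene symbol alone (the nicotinic CHRN, GABA-A and GABA-rho GABR, glycine GLR, ionotropic glutamate GRI, serotonin HTR3 and purinergic P2RX symbols) out of 27054 features in the count tables. The cells were primary anterior pituitary cultures from ovariectomized ewes of the Western white faced breed. All cultures were infected, 24 hours after dispersal, with an adenovirus that carries green fluorescent protein (GFP) under transcriptional control aimed at gonadotropes, the pituitary cells that secrete luteinizing and follicle-stimulating hormone. 3 days later the medium was given estradiol (E2) at 10 nM, or ethanol alone as vehicle, and cells were taken after 6 hours. There were 24 libraries in 4 groups of 6: GFP-sorted cells with vehicle, GFP-sorted cells with E2, unsorted cells with vehicle and unsorted cells with E2. The labels do not say which promoter drove GFP, whether the unsorted cells also passed through the sorter, or whether a replicate number stands for 1 animal or 1 culture, so p-values measure the spread between these libraries.

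A functional channel of this class is built from several subunits, and the subunits decide which ligand, ion and drug it responds to. GABA-A, glycine, nicotinic and 5-HT3 receptors are pentamers of the Cys-loop type, ionotropic glutamate receptors are tetramers, and P2X receptors are trimers. GABA-A and glycine receptors pass chloride, while the others pass cations. Pituitary endocrine cells are electrically excitable, and GABA, glutamate, acetylcholine and ATP are all known to act on them.

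Depth split the libraries by replicate number: replicates 1 to 3 of every group had 4.19 to 6.19 M counts, and replicates 4 to 6 had 19.2 to 37 M. Levels are CPM, that is, read counts scaled to a common library size with edgeR's TMM factors. Gene lengths were not used, so CPM values are compared between libraries and not between genes. The gonadotrope markers CGA, LHB, FSHB, GNRHR and NR5A1 were all higher in sorted than in unsorted vehicle libraries (5 of 5, summed levels of 2492 to 5632 against 291.5 to 1323 CPM). Of the fibroblast and pericyte markers, 5 of 6 were lower in sorted vehicle libraries (list sum 545.4 to 1250 against 3433 to 9173 CPM). DCN, the other marker of that list, was called higher (11.6 to 53.6 against 9.78 to 28.5 CPM). Markers of other endocrine cells moved too: PRL (lactotropes), GHRHR (somatotropes), POMC (corticotropes), TSHB and TRHR (thyrotropes) were higher in sorted vehicle libraries. PRL stood at 6.736e+04 to 1.776e+05 CPM in sorted and 3.898e+04 to 9.038e+04 CPM in unsorted vehicle libraries, so the sorted libraries also held RNA of other endocrine cells. The somatotrope gene GH and the corticotrope genes TBX19 and CRHR1 were not called in this fit. With replicate number as a block all of them were called higher in sorted vehicle libraries. Of 5 folliculostellate and stem cell markers, SOX2, SOX9 and CDH1 were lower (SOX2 at 0.341 to 1.86 against 7.37 to 14.2 CPM) and S100B and ALDH1A1 higher. The endothelial markers PECAM1, CDH5 and KDR (3 of 5) were lower too. TEK and VWF of that list were not called with vehicle without a block. TEK was called higher in sorted vehicle libraries with the block, and in sorted E2 libraries. Of 3 immune markers tested, CSF1R was lower, CD3E higher and CD68 not called. Of 5 neuron markers tested, SYT1, NEFL, NEFM and MAP2 were higher (list sum 892.4 to 1147 against 414.3 to 605.9 CPM), while RBFOX3, the most specific of that list, stood at 0 to 0.372 CPM in sorted and 0 to 0.376 CPM in unsorted vehicle libraries. The part of these markers in the receptor results was not tested.

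Of the 63 subunit genes, 40 passed the edgeR filter on low counts over the 4 groups, and 38 of those 40 had a mean of at least 1 CPM in at least 1 group. Among all 27054 features 15134 passed the same filter. Each receptor family had measured members: 9 of 15 nicotinic, 13 of 19 GABA-A and GABA-rho, 3 of 5 glycine, 3 of 4 AMPA, 2 of 4 kainate, 2 of 2 delta, 4 of 5 NMDA, 1 of 3 serotonin 5-HT3 and 3 of 6 P2X genes. By read counts alone, which longer genes raise, the most counted member was CHRNB1 among nicotinic, GLRA2 among glycine, GRIA3 among AMPA, GRIK2 among kainate, GRIN2C among NMDA, HTR3A among 5-HT3 and P2RX4 among P2X genes. These genes are named for their reads and not for the highest level. GRIN1, the obligatory NMDA subunit, had no feature under that symbol, and neither did CHRNA7, GRIN2D, GRIK5 or P2RX5. The family totals above count only genes with a feature.

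The other 23 genes had 1 to 215 counts each, summed over 24 libraries (median 27), and were not tested at this depth. They were CHRNA4, CHRNA5, CHRNA6, CHRNA9, CHRNB3 and CHRNG; GABRA4, GABRA6, GABRG3, GABRR1, GABRR2 and GABRR3; GLRA1 and GLRA4; GRIA4; GRIK1 and GRIK3; GRIN2B; HTR3B and HTR3E; and P2RX1, P2RX3 and P2RX7. All 3 GABA-rho genes are in this group. GABRR2 was the most counted of the 23 with 215 counts, and CHRNB3 had 1 count in 1 library. None of the 63 genes was without a count.

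The first comparison asks which subunit genes the sorted, gonadotrope-enriched cells carry at a higher or lower level than the mixed culture. In vehicle libraries, 38 subunit genes were tested, of which 21 were higher in sorted cells and 6 were lower at a Benjamini-Hochberg adjusted p under 0.05 in edgeR. Over all 14468 genes tested, 24.4% were higher and 25.8% were lower, and the median log2 difference was 0.016. The median over the 38 subunit genes was 0.87. In E2 libraries, 19 of 38 were higher and 6 lower (25.8% and 26% of all genes; median 0.69 against 0.014). The same 18 genes were higher in both comparisons and the same 5 genes lower, namely CHRNB1, CHRNE, GABRP, GRIN3B and P2RX4. The 2 comparisons share no library, but their libraries are paired by replicate number, so they are not independent of each other. In each comparison 14 of 38 subunit genes had sorted and unsorted groups that did not overlap, against 27.8% of all genes tested with vehicle and 28.7% with E2. In bulk RNA, a lower level from fewer cells of a type and one from less RNA per cell cannot be told apart. The count in vehicle libraries was 17 without sorted vehicle replicate 4, 16 without replicate 5, 17 without replicate 6 and 15 without unsorted vehicle replicate 6, with 26 subunit genes left to test in each of these 4 fits.

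**Figure D1:**
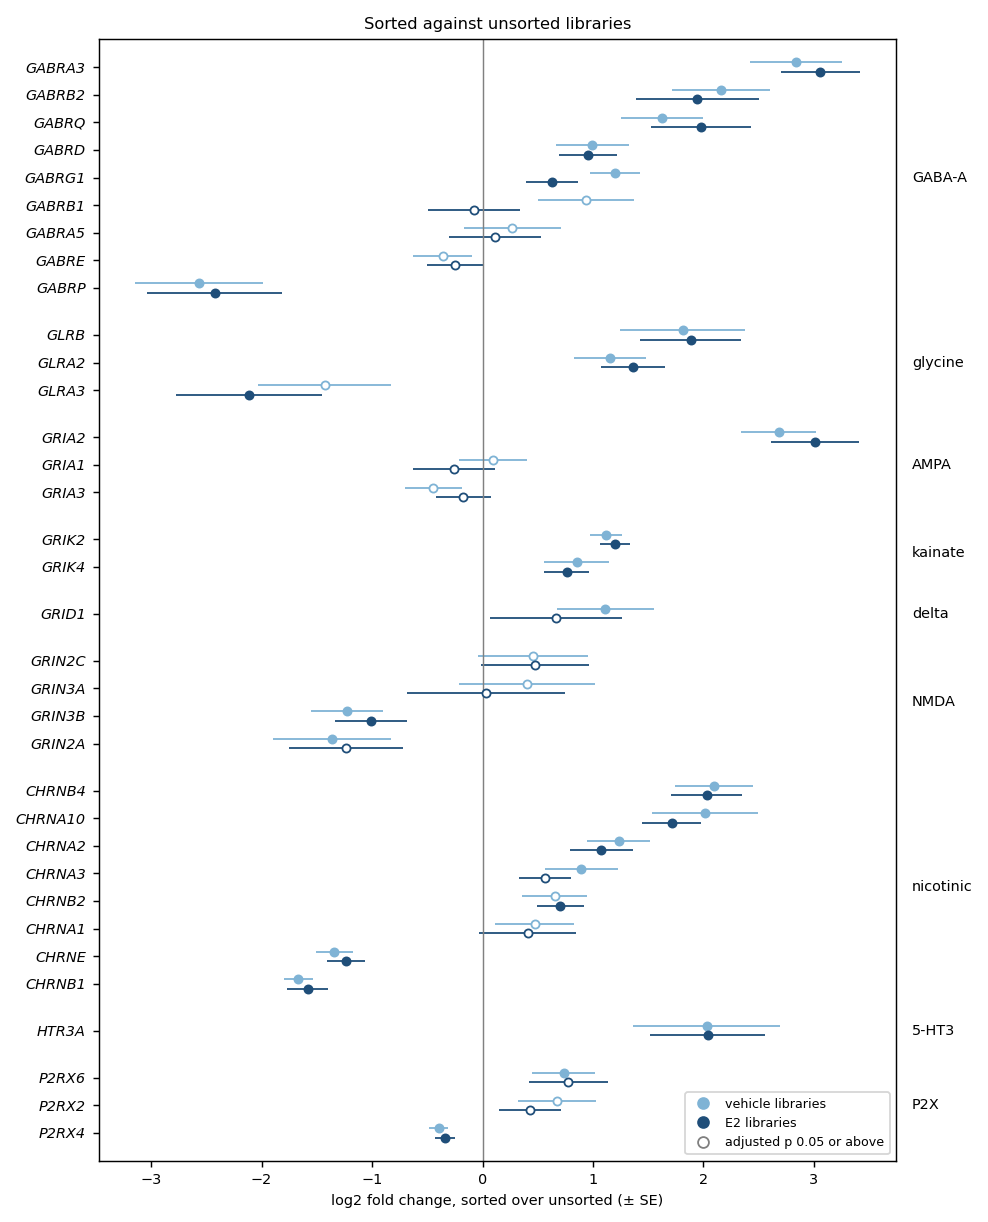
Log2 fold change of tested subunit genes, sorted over unsorted (x axis, ± SE), in vehicle (light) and E2 (dark) libraries, grouped by receptor family. Filled points have an adjusted p under 0.05; of the genes plotted, GABRA3 and GRIA2 lie furthest to the right and GABRP furthest to the left.

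GABA-A genes accounted for 8 of the 21 higher calls with vehicle, and for 12 of the 38 subunit genes tested. The common receptor of this type joins alpha, beta and gamma subunits, and each of the 3 classes had members that were higher in sorted cells. GABRA3 (ENSOARG00000008347), an alpha subunit, ranged from 5.29 to 25.1 CPM in sorted vehicle libraries (median 13.4) and from 0.717 to 2.46 CPM in unsorted vehicle libraries (median 2.14). Every sorted library was above every unsorted one, and the log2 difference was 2.84 ± 0.41 (SE, adjusted p = 6.8e-05). Under E2 it was 3.06 ± 0.36 (adjusted p = 1.38e-05), again with no overlap.

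GABRB2, a beta subunit, stood at 1.42 to 2.93 CPM in sorted and 0.202 to 1.13 CPM in unsorted vehicle libraries (2.16 ± 0.44, adjusted p = 0.00104). GABRG1, a gamma subunit, stood at 14.9 to 24.3 against 4.7 to 12.6 CPM (1.20 ± 0.23, adjusted p = 0.00055). Both genes separated the vehicle groups without overlap, and both overlapped under E2.

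The E2 call of GABRG1 was weak. Its sort difference in E2 libraries was 0.63 ± 0.24 (adjusted p = 0.0379), and the call was lost without sorted E2 replicate 1 (adjusted p = 0.094), 2 (0.051), 4 (0.058) or 6 (0.052) and without unsorted E2 replicate 2 (0.064), 3 (0.075), 5 (0.077) or 6 (0.084). With replicate number as a block the difference was 0.65 ± 0.13 (adjusted p = 0.00145).

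The subunits that replace a beta or gamma subunit in rarer receptors went both ways. GABRQ (theta) differed by 1.63 ± 0.37 with vehicle and 1.98 ± 0.45 with E2, and GABRD, the delta subunit of extrasynaptic receptors, by 0.99 ± 0.33 and 0.95 ± 0.26. The vehicle call of GABRD was lost without sorted vehicle replicate 5 (adjusted p = 0.064) or unsorted vehicle replicate 6 (0.058). GABRP (ENSOARG00000003297), the pi subunit known from epithelia, went the other way: 0 to 2.1 CPM in sorted (median 0.639) and 1.43 to 7.71 CPM in unsorted vehicle libraries (median 5.41), a difference of -2.57 ± 0.58 (adjusted p = 0.00213). The epithelial marker CDH1 was lower as well (-1.36 ± 0.16), and its part in this result was not tested. GABRP was lower in the sorted library of all 6 replicate numbers, although the groups overlapped, and under E2 the difference was -2.42 ± 0.61. GABRE, GABRA5 and GABRB1 were not called in either comparison.

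**Figure D2:**
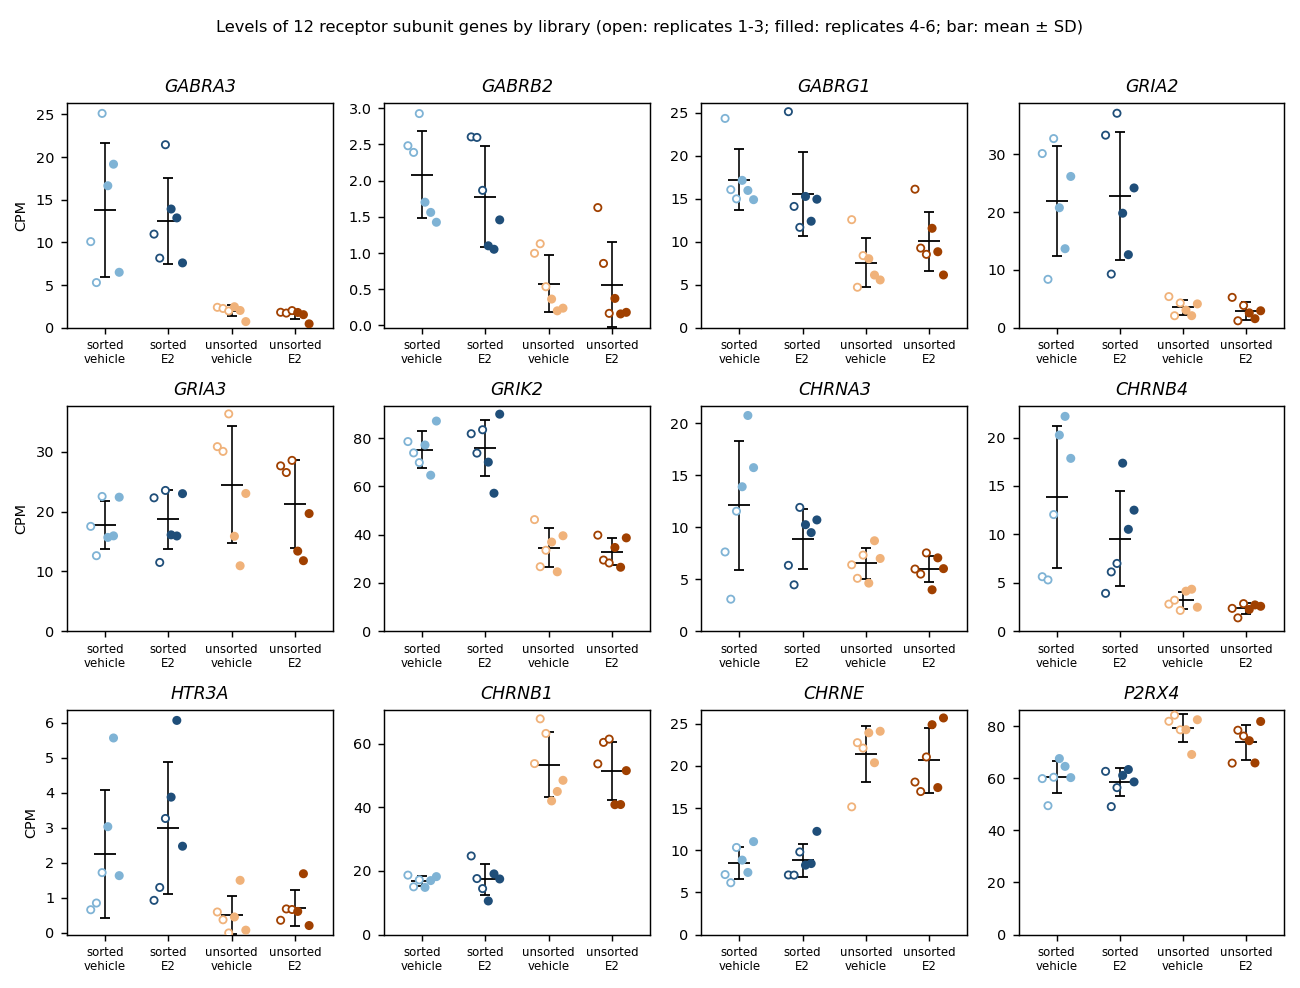
CPM of 12 subunit genes (y axes, linear) in each of the 24 libraries by group, with mean ± SD; open points are replicates 1 to 3 and filled points replicates 4 to 6. GABRA3, GABRB2, GABRG1, GRIA2, GRIK2 and CHRNB4 are higher in every sorted vehicle library than in any unsorted one, and CHRNB1, CHRNE and P2RX4 are lower.

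Glycine receptor genes split by subunit. GLRA2, an alpha subunit, stood at 1.38 to 4.1 CPM in sorted and 0.577 to 1.59 CPM in unsorted vehicle libraries (1.16 ± 0.33, adjusted p = 0.00898). GLRB, the beta subunit that ties the receptor to its scaffold gephyrin, differed by 1.81 ± 0.57 (adjusted p = 0.0157). GLRA3, another alpha subunit, lay lower in sorted cells: 0.106 to 1.65 against 0.759 to 4.28 CPM with vehicle. It was lower in the sorted library of all 6 replicate numbers. Its call depended on the fit: -1.43 ± 0.60 with vehicle (adjusted p = 0.0612), -1.53 ± 0.33 with replicate number as a block (adjusted p = 0.00199) and -2.11 ± 0.66 with E2 (adjusted p = 0.016).

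Glutamate receptor genes were read by class. GRIA2 (ENSOARG00000006222), the AMPA subunit that makes the channel nearly impermeable to calcium, ranged from 8.36 to 32.7 CPM in sorted (median 23.4) and from 2.07 to 5.38 CPM in unsorted vehicle libraries (median 3.58). The groups did not overlap, and the difference was 2.68 ± 0.34 with vehicle (adjusted p = 2.02e-05) and 3.01 ± 0.40 with E2 (adjusted p = 3.49e-05). The AMPA subunits GRIA1 (0.09 ± 0.31) and GRIA3 (-0.45 ± 0.26) were not called with vehicle. GRIA3, the most counted AMPA gene, stood at 12.6 to 22.5 CPM in sorted and 10.9 to 36.4 CPM in unsorted vehicle libraries, so the groups overlapped.

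GRID1, a receptor of the delta class, was called with vehicle only (1.11 ± 0.44, adjusted p = 0.0473). That call was lost without sorted vehicle replicate 1 (adjusted p = 0.11), 2 (0.059) or 3 (0.063), and without unsorted vehicle replicate 2 (0.084) or 3 (0.08). It held without unsorted vehicle replicate 1. The fits without replicate 4, 5 or 6 of either group tested 26 subunit genes, and GRID1 was not among those called. It was also not called without the filter or in 1 fit of all 4 groups. With the replicate block and in DESeq2 it was called higher with vehicle.

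GRIK2 (ENSOARG00000011501), the main kainate receptor subunit, stood at 64.6 to 87.1 CPM in sorted (median 75.5) and 24.6 to 46.2 CPM in unsorted vehicle libraries (median 35.2). The groups did not overlap, and the difference was 1.12 ± 0.15 with vehicle (adjusted p = 2.43e-05) and 1.20 ± 0.14 with E2. GRIK4, which needs a partner such as GRIK2 to form a channel, differed by 0.85 ± 0.29 and 0.76 ± 0.20. The vehicle call of GRIK4 was lost without sorted vehicle replicate 2 (adjusted p = 0.052) or unsorted vehicle replicate 6 (0.064).

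Of 4 tested NMDA genes, 0 were higher in sorted cells in the unblocked edgeR fits, also at an unadjusted p under 0.05, and 0 in DESeq2. GRIN3B, a subunit that lowers calcium flow through NMDA receptors, stood at 0.331 to 1.01 CPM in sorted and 0.752 to 2.59 CPM in unsorted vehicle libraries (-1.23 ± 0.32, adjusted p = 0.00601; -1.01 ± 0.33 with E2). In RefSeq it overlaps TMEM259, and reads of overlapping genes may not be told apart, since the strand setting of the counting is not given in the sources used here. GRIN2A was called lower with vehicle (-1.36 ± 0.53, adjusted p = 0.0456) and not with E2 (-1.24 ± 0.52, adjusted p = 0.0586). Leaving out sorted vehicle replicate 1 or 2 ended the vehicle call (adjusted p = 0.052 for both) as did leaving out unsorted vehicle replicate 1 (0.054), 2 (0.093) or 3 (0.11). The call held without sorted vehicle replicate 3. In the fits without replicate 4, 5 or 6 of either group, which tested 26 subunit genes, GRIN2A was not among the genes called. With vehicle GRIN2A was called lower with the replicate block, in DESeq2 and in replicates 4 to 6. DESeq2 called it lower with E2 too. GRIN2C, the most counted NMDA gene, was called higher with vehicle in the fit with the replicate block alone (0.52 ± 0.19, adjusted p = 0.0324, higher in 6 of 6 pairs). GRIN3A was called in neither sort comparison.

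Nicotinic genes went both ways. The muscle-type receptor is built from CHRNA1, CHRNB1 and CHRND with CHRNE or CHRNG. CHRNB1 (ENSOARG00000013533) stood at 14.8 to 18.7 CPM in sorted (median 17.1) and 42 to 67.9 CPM in unsorted vehicle libraries (median 51.2), a difference of -1.67 ± 0.13 (adjusted p = 3.53e-07). CHRNE, which in RefSeq overlaps another protein-coding gene, stood at 6.14 to 11 CPM in sorted and 15.1 to 24.1 CPM in unsorted vehicle libraries (-1.34 ± 0.16, adjusted p = 1.39e-05). Neither gene's groups overlapped with vehicle or with E2, where the differences were -1.58 ± 0.19 and -1.24 ± 0.17. CHRNA1 was not called (0.47 ± 0.36 with vehicle). CHRNG was below the filter, with 10 counts in the 6 sorted vehicle, 18 in unsorted vehicle, 29 in sorted E2 and 10 in unsorted E2 libraries. Without the filter it was called higher in sorted cells with E2 (edgeR 1.99 ± 0.59, adjusted p = 0.0148; DESeq2 adjusted p = 0.0254) and not with vehicle (edgeR -0.33 ± 0.65, adjusted p = 0.741).

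CHRNB4 (ENSOARG00000001184) and CHRNA3 (ENSOARG00000001130) encode the pair of subunits that forms the ganglionic receptor of autonomic neurons. CHRNB4 stood at 5.29 to 22.2 CPM in sorted (median 14.9) and 2.14 to 4.33 CPM in unsorted vehicle libraries (median 2.99). The groups did not overlap (2.10 ± 0.35, adjusted p = 0.000216; 2.03 ± 0.32 with E2). CHRNA3 ranged from 3.07 to 20.7 CPM in sorted (median 12.7) and from 4.61 to 8.69 CPM in unsorted vehicle libraries (median 6.68), with overlapping groups and a difference of 0.90 ± 0.33 (adjusted p = 0.0346).

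The CHRNA3 call depended on the libraries used. In blocked fits of each depth set, the difference was 0.18 in replicates 1 to 3 and 1.31 in replicates 4 to 6. The unblocked call was lost without sorted vehicle replicate 4 (adjusted p = 0.062), 5 (0.096) or 6 (0.076) and without unsorted vehicle replicate 1 (0.058), 2 (0.071), 4 (0.074) or 6 (0.059). In the blocked fit of all vehicle libraries CHRNA3 was called higher. With E2 the difference was 0.57 ± 0.24 (adjusted p = 0.0577), and 0.57 ± 0.20 with the block (adjusted p = 0.0242).

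CHRNA2, an alpha subunit of neuronal receptors, was higher in sorted cells with vehicle (1.23 ± 0.28, adjusted p = 0.00233) and with E2 (1.07 ± 0.28). CHRNB2, the beta subunit of the most common brain receptor, was called with E2 (0.71 ± 0.21, adjusted p = 0.0136) and not with vehicle (0.65 ± 0.29, adjusted p = 0.0782). CHRNA10 (ENSOARG00000002505), an alpha subunit best known from cochlear hair cells, stood at 0.927 to 4.47 CPM in sorted and 0.292 to 1.2 CPM in unsorted vehicle libraries. The difference was 2.01 ± 0.48 (adjusted p = 0.00316), and 1.71 ± 0.27 with E2 (adjusted p = 0.000136).

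CHRNA9, the usual partner of CHRNA10, was below the filter. It had 44 counts in the 6 sorted vehicle libraries, 6 in unsorted vehicle, 36 in sorted E2 and 10 in unsorted E2 libraries. Without the filter edgeR called it higher in sorted cells (adjusted p = 0.000936 with vehicle and 0.00686 with E2), and DESeq2 did too (0.000331 and 0.00676). CHRNA6, another untested alpha subunit, was called in the same fits (edgeR without the filter, adjusted p = 0.0157 with vehicle).

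HTR3A, the subunit that every 5-HT3 receptor needs, ranged from 0.662 to 5.56 CPM in sorted and from 0 to 1.5 CPM in unsorted vehicle libraries (2.03 ± 0.67, adjusted p = 0.0202; 2.04 ± 0.52 with E2). It was higher in the sorted library of all 6 replicate numbers in both comparisons. P2RX4 (ENSOARG00000015214), the most counted P2X receptor, was lower in sorted cells by a small margin: 49.5 to 67.6 CPM (median 60.3) against 69.1 to 84.2 CPM (median 80.3). The vehicle groups did not overlap (-0.39 ± 0.09, adjusted p = 0.00167), nor did the E2 groups (-0.34 ± 0.09, adjusted p = 0.0058).

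P2RX6, a P2X subunit that forms channels mainly with others, was called higher with vehicle (0.74 ± 0.29, adjusted p = 0.0453). In the unblocked fit of the groups compared it was not called with E2. The call was lost without sorted vehicle replicate 1 (adjusted p = 0.064) and without unsorted vehicle replicate 1 (0.076), 2 (0.061) or 3 (0.084). It held without sorted vehicle replicate 2 or 3. In the fits without replicate 4, 5 or 6 of either group, which tested 26 subunit genes, P2RX6 was not among the genes called. Nor was it called with vehicle without the filter or in 1 fit of all 4 groups. The vehicle call was made with the replicate block, in DESeq2 and in replicates 4 to 6. With E2, P2RX6 was called higher in 1 fit of all 4 groups and in replicates 4 to 6. P2RX2 was called higher with vehicle in the fit with the block (0.77 ± 0.27, adjusted p = 0.0268).

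In the authors' deposited table of the same comparison, 29 of 47 listed subunit genes had a false discovery rate under 0.05, 22 of them higher and 7 lower in sorted cells. Of these 29 genes, 26 were also called here in the unblocked edgeR fit. The others were CHRNA6 and CHRNA9, below the filter of that fit, and GLRA3. DESeq2 called CHRNA6 and CHRNA9 higher and GLRA3 lower here too. P2RX6 was called here alone.

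The second comparison asks how 6 hours of E2 changed these genes. The E2 comparisons share their libraries with the sort comparisons above. Sorted and unsorted E2 comparisons share no library with each other, but their libraries are paired by replicate number, so they are not independent either. In sorted cells 36 subunit genes were tested. Without a block, 1 was called higher, CHRNA10, and 0 lower in edgeR (1.11% and 0.258% of all 14334 genes). At an unadjusted p under 0.05 there were 2 subunit genes (7.14% of all genes), and DESeq2 also called 1 higher and 0 lower (1.76% and 0.549% of all genes). With replicate number as a block, 1 was higher and 5 were lower (7.03% and 6.2% of all genes).

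In unsorted cells 36 subunit genes were tested as well. Without a block, CHRNA10 was again the 1 gene called higher, with 0 lower in edgeR (0.212% and 0.0331% of all 15083 genes). An unadjusted p under 0.05 was reached by 2 subunit genes (2.82% of all genes), and DESeq2 called 1 higher and 1 lower (0.588% and 0.129%). With the block, 2 were higher and 1 lower (2.86% and 2.37% of all genes). Same-numbered libraries resembled each other more than other libraries did, and blocked values are therefore given beside these results.

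**Figure D3:**
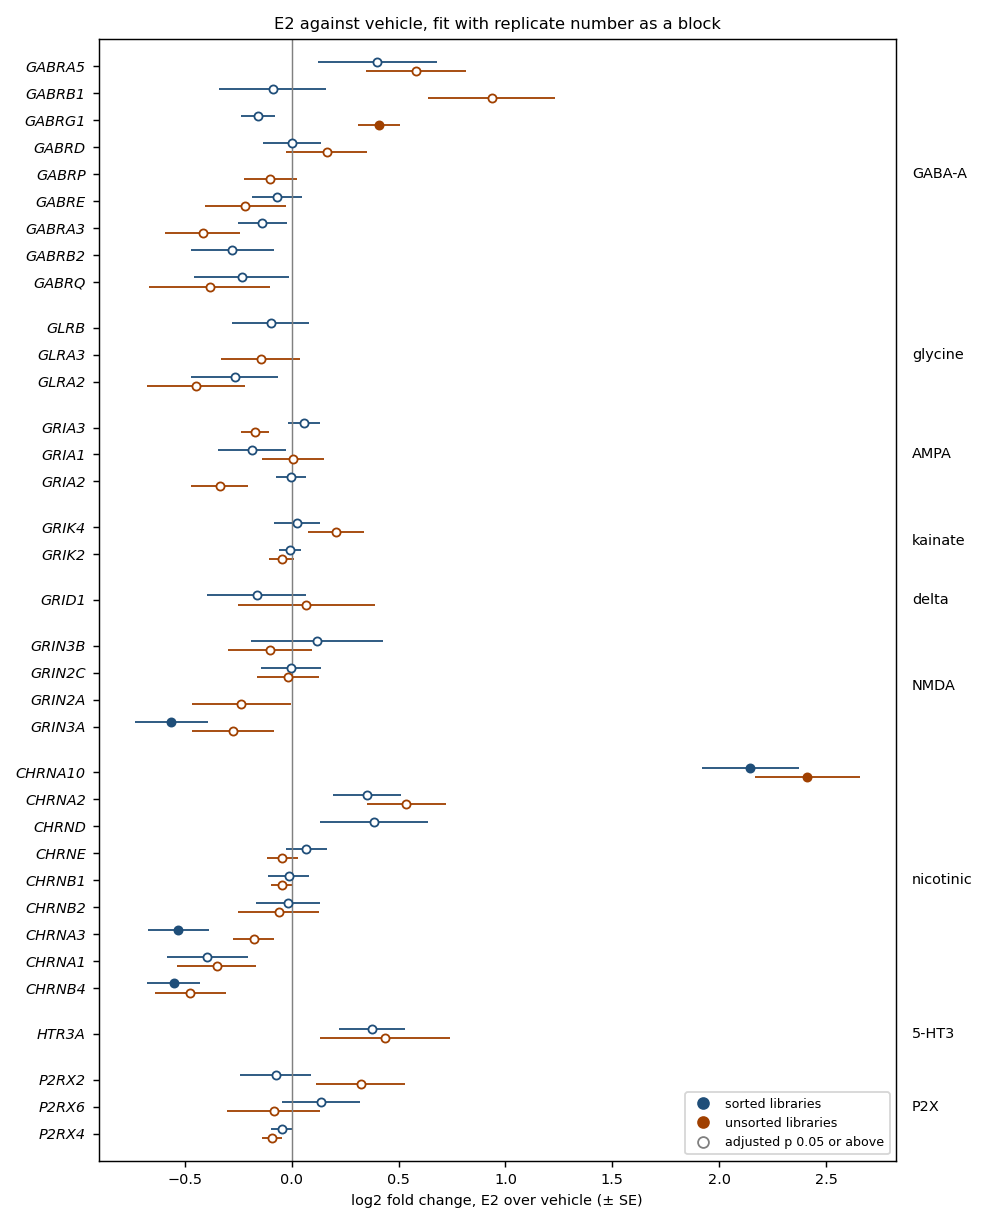
Log2 fold change of tested subunit genes, E2 over vehicle (x axis, ± SE, fit with the replicate block), in sorted (blue) and unsorted (brown) libraries. Filled points have an adjusted p under 0.05; CHRNA10 stands above 2 in both preparations, and the other filled points lie between -0.56 and 0.41.

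CHRNA10 was called higher with E2 in both preparations. In sorted vehicle libraries it stood at 4.47, 1.54, 3.44, 1.38, 0.927 and 2.39 CPM (replicates 1 to 6), and in sorted E2 libraries at 6.69, 4.08, 13.1, 8.32, 7.66 and 11.5 CPM. The E2 library was the higher one in 6 of 6 pairs, and the groups overlapped only through vehicle replicate 1 and E2 replicate 2. The difference was 1.91 ± 0.38 (adjusted p = 0.0229) and 2.15 ± 0.23 with the block (adjusted p = 2.63e-05). It was 1.30 in replicates 1 to 3 and 2.55 in replicates 4 to 6. Without the block the call was lost without sorted vehicle replicate 2 (adjusted p = 0.066), 4 (0.064) or 6 (0.065) or sorted E2 replicate 3 (0.054) or 6 (0.067).

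In unsorted cells CHRNA10 stood at 1.2, 1.13, 0.357, 0.516, 0.433 and 0.292 CPM with vehicle and at 1.99, 2.23, 3.01, 3.31, 2.87 and 1.99 CPM with E2. Every E2 library was above every vehicle library. The difference was 2.22 ± 0.35 (adjusted p = 0.0157) and 2.41 ± 0.25 with the block (adjusted p = 1.61e-06). In replicates 1 to 3 it was 1.44 (adjusted p = 0.406) and in replicates 4 to 6 it was 2.72. The unblocked call was lost without unsorted vehicle replicate 4 (adjusted p = 0.056) or 5 (0.052) or unsorted E2 replicate 5 (0.052). The levels order the groups as sorted E2, unsorted E2, sorted vehicle and unsorted vehicle by median (7.99, 2.55, 1.96 and 0.474 CPM), and of the neighbours in this order only sorted E2 and unsorted E2 did not overlap. The authors' deposited tables also list CHRNA10 as higher with E2 in sorted (false discovery rate 0.000606) and unsorted cells (1.8e-05).

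Of the 5 gonadotrope markers, GNRHR, the gonadotropin-releasing hormone receptor, was called higher with E2 in both preparations without a block (1.98 ± 0.38 in sorted and 2.86 ± 0.44 in unsorted cells). FSHB, the beta subunit of follicle-stimulating hormone, was called lower in both with the block (-0.84 ± 0.06 and -0.82 ± 0.06). The part of these markers in the CHRNA10 result was not tested. CHRNA9 was not called with E2 in the edgeR fit without the filter (-0.22 in sorted and 0.65 in unsorted cells).

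**Figure D4:**
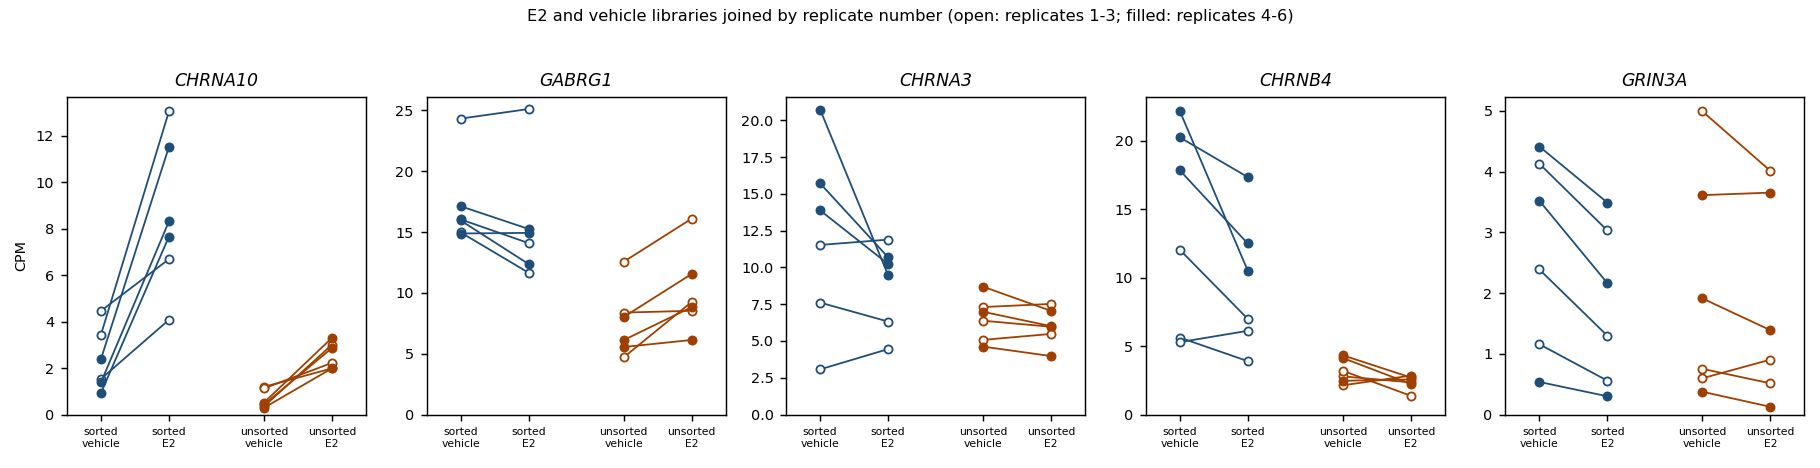
CPM (y axes, linear) of 5 subunit genes in vehicle and E2 libraries joined by replicate number, sorted at left and unsorted at right in each panel; open points are replicates 1 to 3. CHRNA10 rises in all 6 pairs of both preparations, GRIN3A falls in all 6 sorted pairs, and GABRG1 rises in all 6 unsorted pairs.

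Calls of a lower level in sorted cells came from the block alone. CHRNB4 stood at 5.29 to 22.2 CPM with vehicle (median 14.9) and 3.91 to 17.4 CPM with E2 (median 8.76), lower in 5 of 6 pairs (-0.55 ± 0.12, adjusted p = 0.00474). For CHRNA3 the values were 3.07 to 20.7 CPM (median 12.7) and 4.45 to 11.9 CPM (median 9.85), lower in 4 of 6 pairs (-0.53 ± 0.14, adjusted p = 0.019). GRIN3A, an NMDA subunit whose gene overlaps PPP3R2 in RefSeq, stood at 0.537 to 4.41 CPM (median 2.95) and 0.301 to 3.49 CPM (median 1.73), lower in 6 of 6 pairs (-0.56 ± 0.17, adjusted p = 0.0318).

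In fits of either depth set alone, with the block, these genes did not behave alike. CHRNA3 changed sign between the sets: replicates 1 to 3 gave 0.04, replicates 4 to 6 gave -0.72. CHRNB4 differed by -0.39 and -0.60 in the same order. GRIN3A differed by -0.66 and -0.55 and was called in neither set. In the same blocked fit of sorted cells, 4 of 5 tested neuron markers (SYT1, NEFL, TUBB3 and MAP2) were lower too, with values of -0.13 to -0.32. So were the thyrotrope markers TRHR (-0.97 ± 0.07, called lower without the block too) and TSHB (-0.30 ± 0.05), the gonadotrope marker FSHB, and ALDH1A1 and CDH1 (-0.15 ± 0.03 and -0.16 ± 0.05), while GNRHR and GHRHR were higher. The part of these markers in the receptor results was not tested.

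GABRG1 was called higher with E2 in unsorted cells with the block (0.41 ± 0.10, adjusted p = 0.0155). It stood at 4.7 to 12.6 CPM with vehicle (median 7.07) and 6.13 to 16.1 CPM with E2 (median 9.04), higher in 6 of 6 pairs with overlapping groups. In sorted cells the value was -0.16 ± 0.08 with the block (adjusted p = 0.258). In the blocked fit of unsorted cells GNRHR and GHRHR were higher and FSHB, TRHR and the neuron markers NEFL, TUBB3 and MAP2 lower (-0.21, -0.27 and -0.35 for these 3), and their part in the receptor results was not tested. Of the families with no E2 call in any of these fits, glycine, AMPA, kainate, delta, 5-HT3 and P2X genes were all tested in at least 1 preparation.

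The difference between the E2 effects in sorted and unsorted cells was itself tested in all 24 libraries. Of 40 subunit genes tested, 0 were called by edgeR without or with the block, and 0 by DESeq2 (0.0264% and 0.463% of all 15134 genes were called by edgeR, and 0.11% of 14531 by DESeq2). At an unadjusted p under 0.05 there were 0 subunit genes without and 2 with the block (1.56% and 5.37% of all genes). For CHRNA10 the difference of effects was -0.30 ± 0.51, and for GABRG1 -0.57 ± 0.33 without and -0.57 ± 0.17 with the block (adjusted p = 0.243).

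Genes that make, move or anchor the transmitters and receptors were read from lists of 121 genes, of which 73 were tested in the vehicle sort comparison, with 30 higher and 14 lower in sorted cells (24.4% and 25.8% of all genes). For GABA, 8 of 13 tested genes were higher. Among them were the GABA-degrading enzyme ABAT, the transporter SLC6A11, the metabotropic receptor GABBR1, the chloride exporter SLC12A5 and the receptor anchoring and trafficking genes GPHN, LHFPL4 and GABARAPL1. GABARAPL1 stood at 163 to 198 CPM in sorted and 87.2 to 109 CPM in unsorted vehicle libraries (0.90 ± 0.08, adjusted p = 1.38e-06). GPHN, the gephyrin gene, differed by 0.57 ± 0.13. The GABA-synthesizing enzymes GAD1 and GAD2 were below the filter, with group means of at most 0.601 CPM.

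For glutamate, 12 of 22 tested genes were higher and 4 lower. GLUL, which turns glutamate into glutamine, was lower in sorted cells (32.5 to 52.8 against 94.8 to 142 CPM; -1.54 ± 0.15, adjusted p = 1.46e-06). GRIP1, a scaffold that binds AMPA receptors, was higher (56.1 to 109 against 23.6 to 37.8 CPM; 1.36 ± 0.17), as was DLG2, a postsynaptic scaffold (0.84 ± 0.11). For acetylcholine, 4 of 11 were higher and 1 lower. TMEM35A, the nicotinic receptor chaperone NACHO, differed by 0.77 ± 0.13, the cholinesterase BCHE by 1.13 ± 0.22 and the Ly6 protein LYPD6B by -2.02 ± 0.41. The acetylcholine-synthesizing enzyme CHAT was below the filter, at no more than 0.186 CPM in any library.

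For serotonin, 5 of 12 were higher and 2 lower, among them the receptors HTR2C (2.80 ± 0.51) and HTR1B (-1.07 ± 0.30) and the decarboxylase DDC (0.87 ± 0.24). For extracellular ATP and its products, 1 of 12 was higher and 7 lower. P2RY14, a receptor for nucleotide sugars, was the higher one (2.06 ± 0.37), and the adenosine deaminase ADA (-2.05 ± 0.27) and the adenosine receptor ADORA2B (-2.04 ± 0.39) were among the lower. For glycine, 3 genes were tested, and SHMT2, which makes glycine from serine, was called lower with vehicle in the fit with the block alone (-0.26 ± 0.07, adjusted p = 0.0108) and with E2 without it too (-0.30 ± 0.11, adjusted p = 0.0325).

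With E2 and no block, 1 of 70 tested partner genes was called, a lower one, in sorted cells (1.11% of all genes were higher and 0.258% lower), and 1 of 74 higher and 1 lower in unsorted cells (0.212% and 0.0331%). With the block the counts were 9 higher and 7 lower in sorted cells (7.03% and 6.2% of all genes) and 7 higher and 6 lower in unsorted cells (2.86% and 2.37%). CHRM3, a muscarinic receptor, was lower in unsorted cells (2.51 to 5.09 against 6.97 to 15.4 CPM, no overlap; -1.37 ± 0.22, adjusted p = 0.0189), and it was not called in sorted cells without the block (-0.21 ± 0.25) or with it (-0.24 ± 0.10, adjusted p = 0.162). The CHRM3 call was lost without unsorted vehicle replicate 4 (adjusted p = 0.066), 5 (0.057) or 6 (0.067) or unsorted E2 replicate 1 (0.065), 5 (0.068) or 6 (0.052). P2RY14 was higher in unsorted cells (1.88 to 4.2 against 0.372 to 0.797 CPM, no overlap; 2.49 ± 0.28, adjusted p = 0.00222), and in sorted cells it was not called without the block (0.81 ± 0.31, adjusted p = 0.436) and was called higher with it (0.91 ± 0.19, adjusted p = 0.00253). The difference between the E2 effects in sorted and unsorted cells was called with the block for CHRM3 (1.18, adjusted p = 0.00318) and P2RY14 (-1.63, adjusted p = 0.0362), and for neither without it (adjusted p = 0.961 and 0.382).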

How the data were processed

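The deposited tables hold raw read counts per gene for 24 libraries, made by the authors with featureCounts 1.5.1, per the submitters' processing notes. Which aligner, build and strand option preceded this is not given in the sources used here. Log2 fold changes and p-values (false discovery rates) of 3 deposited comparison tables are the authors' own edgeR values, per the file headers, and serve only for comparison. Counts were fitted here with edgeR 4.0.16 in R 4.3.3: TMM scaling, filterByExpr on the groups compared, robust glmQLFit and the 2-sided quasi-likelihood F-test, with Benjamini-Hochberg adjustment over all genes tested. Fold changes are log2 values, and an SE is the log2 value divided by the root of its F statistic. The 5 comparisons were sorted against unsorted with vehicle and with E2, E2 against vehicle within each preparation, and the interaction of E2 with the sort. Alternatives were a replicate block, RLE scaling, DESeq2 1.42.0, no filter, 1 fit of 4 groups, either depth set alone, and each library left out.

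In group-centred log counts, 36 of 36 same-numbered pairs of libraries correlated best with their own number (r = 0.29 to 0.859), so the numbers were taken to pair libraries; the labels do not say so. The 12 vehicle libraries stand in 2 tables each, and 0 values differed. Named genes are all members called in any comparison, without or with the block, the most counted member of each family, and from each partner list up to 3 called genes with the smallest p in the vehicle sort comparison and each gene called with E2. Results for some of these genes are not reported here. Members and lists were chosen with earlier results of these data known. RefSeq (ARS-UI_Ramb_v3.0) gave gene order and overlaps for the 58 members it lists; since the build of the counts is not given, no coordinates are printed. The fits were tested on simulated counts.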

Additional observations from a re-analysis of the deposited data

Results flagged for a closer look

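Within groups of 6 libraries, the gap test on the highest or lowest value was applied to 132 groups of 33 subunit genes. In 16 groups a library stood apart from the others. For independent, normally distributed values the test flags about 1 in 20 groups by chance. That rate may not hold here, since many CPM values rest on few reads and same-numbered libraries are correlated. Of the values given in CPM, GABRA3 was low at 0.717 in unsorted vehicle replicate 6 and at 0.453 in unsorted E2 replicate 6. GABRG1 was high at 24.3 in sorted vehicle replicate 1 and at 25.1 in sorted E2 replicate 1. GLRB was high in the same libraries, at 4.14 in sorted vehicle replicate 1 and 4.83 in sorted E2 replicate 1, and at 2.32 in unsorted vehicle replicate 3. GLRA3 was high at 1.87 in sorted E2 replicate 3 and 4.68 in unsorted E2 replicate 3, and GABRQ at 5.83 in sorted E2 replicate 3. GRID1 was high at 2.48 in sorted vehicle replicate 1. GABRD was high at 3.49 in unsorted vehicle replicate 5, where P2RX4 was low at 69.1. GABRP was high at 2.25 in sorted E2 replicate 5, HTR3A at 1.69 in unsorted E2 replicate 5 and P2RX2 at 2.4 in unsorted E2 replicate 4. Equal replicate numbers recur in the flags of GABRA3, GABRG1, GLRB and GLRA3.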

How the results depend on the processing

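The 2 sort comparisons kept 27 and 25 called subunit genes under RLE scaling. With vehicle the count ran from 15 to 27 when 1 library was left out. With the replicate block it was 30 of 38 tested, 18 of 24 in replicates 1 to 3 alone and 29 of 42 in replicates 4 to 6 alone. It was 26 of 40 in 1 fit of 4 groups, 27 of 63 without the filter and 31 of 52 in DESeq2. With E2 it was 26 of 38 with the block, and it ran from 17 to 27 when 1 library was left out. The E2 fits with 17 calls tested 24 or 25 subunit genes. In the 4 lowest fits with vehicle, 26 instead of 38 subunit genes passed the filter. The E2 counts were small and moved. In sorted cells 1 gene was called, against 6 with the replicate block and 5 in replicates 4 to 6 with the block, and 0 to 1 with 1 library left out. In unsorted cells 1 was called, against 3 with the replicate block, 2 in replicates 4 to 6, 2 in 1 fit of 4 groups, 2 in DESeq2 and 0 to 2 with 1 library left out. The E2 value of CHRNA3 in sorted cells changed sign in replicates 1 to 3 (0.0393), and the cause was not tested. The replicate block added 11 calls and ended no call among the 65 results examined. RLE scaling changed none of these 65 results' calls. With 4.19 to 6.19 M counts, the shallow libraries limit the genes near 1 CPM to a few reads each, and the 23 genes under the filter cannot be called unchanged.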

Other observations

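Many of these subunit genes lie side by side in the genome. In the RefSeq gene order, 27 of the 58 subunit genes it lists fall into 10 groups with at most 1 other protein-coding gene between neighbours, and the sort differences with vehicle of some are given here as values. GABRQ and GABRA3 were higher (1.63 and 2.84), while GABRE beside them was not called (-0.36). CHRNA3 and CHRNB4 were higher (0.90 and 2.10), with CHRNA5 below the filter. GRIA2 and GLRB, a glutamate and a glycine receptor gene, were both higher (2.68 and 1.81). GABRG1 was higher (1.20), while GABRB1 in the same group was not called (0.94) and GABRA2 and GABRA4 were not tested.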
